A study of Mus musculus with 12 samples.

Results

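Transcripts of epithelial laminins, of the integrins that bind them and of 1 transmembrane collagen were followed in the mouse ileum, the stretch of small intestine that ends at the colon. The group has 9 genes of the 55891 in the deposited table, taken by their symbols: the laminin chains Lama3, Lamb3 and Lama5, the integrin chains Itga2, Itga3, Itga6, Itgb1 and Itgb4, and Col17a1. They were picked with their values by genotype and by litter already known, so differences between genotypes and litters are given for them as a description, with no test.

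Laminins are three-chain proteins of the basement membrane, the sheet of matrix on which an epithelium rests. Integrins are receptors made of an alpha and a beta chain that hold the basal face of a cell to that sheet. In the classical hemidesmosome of skin, the integrin of the chains Itga6 and Itgb4 and the collagen Col17a1 bind laminin-332, which is built with the Lama3 and Lamb3 chains, and plectin ties the integrin to keratin filaments. The simple epithelium of the gut is known for a lighter form of this anchor that lacks Col17a1, and in mice the laminin of the upper villus is known to differ from that of the crypt.

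RNA of scraped ileal mucosa from 12 mice at baseline was sequenced, with 1 library from each mouse. Of these mice, 6 were labelled ERBB3-dIE (mice 4, 5 and 6 of litter A and mice 1, 2 and 3 of litter B) and 6 Erbb3-FF (mice 3, 4, 5 and 6 of litter A and mice 1 and 2 of litter B). The names point to the ErbB receptor gene Erbb3, and the labels spell out neither FF nor dIE, nor any age, promoter or Cre driver. Values are TPM, the share of all transcripts in a library that a gene holds once its reads are corrected for its length. Levels of different genes can therefore be set side by side, but the depth of each library is unknown.

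The libraries held RNA of ileal epithelium, beside RNA of other cell types described below. Each held between 12344 and 13364 genes at 1 TPM or more, all 9 epithelial markers were present in all 12 libraries, and the ileal bile acid carriers Fabp6 and Slc10a2 were present in every library, at 6460 TPM or more and at 48.2 TPM or more. Erbb3 itself had between 104 and 206 TPM in ERBB3-dIE libraries and between 87.3 and 151 TPM in Erbb3-FF libraries, and the difference in mean log2(TPM + 0.5) of 0.26 was within the spread of the mice (exact 2-sided permutation test, p = 0.219, n = 6 each). With litter in the model the log2 difference was 0.16 (limma, interval -0.07 to 0.39, adjusted p = 0.402). The permutation test left litter aside, and Erbb3 was 0.57 higher in litter B (limma, adjusted p = 0.0187). A level summed over the whole gene does not show whether part of it was removed, so this value checks the labels in neither direction.

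The library of Erbb3-FF mouse 3 went against its litter label. Without this library 3059 genes were called for litter, and at 86.0% of them it lay nearer to the Erbb3-FF mean of litter B than to that of its labelled litter A, whereas the same share was between 3.55% and 35.4% for the other 11 libraries. Its Fabp6 level of 45972 TPM stood beside 35207 and 35607 TPM in the Erbb3-FF mice of litter B, and between 8689 and 10690 TPM in the other Erbb3-FF mice of litter A. It was kept under its label, and member differences are also given without it.

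Lamb3, the beta chain of laminin-332, and Lama3, its alpha chain, were the 2 genes that stood furthest below their Erbb3-FF level. Itgb4, the beta chain of the hemidesmosomal integrin, and Itga3, an alpha chain of laminin receptors, were lower by a smaller step. Itga6, Itgb1 and Itga2 had overlapping ranges and close means in both genotypes, Lama5 varied widely inside each genotype, and Col17a1 was close to 0 everywhere. Log2 differences are ERBB3-dIE minus Erbb3-FF on log2(TPM + 0.5), from a linear model with litter and genotype as terms (limma), fitted over the 12605 genes that reached 1 TPM in 6 or more libraries.

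The start of Lamb3 is shown as the member with the largest difference, and that of Itgb1 as a member with hardly any, each as 250 bases before and 50 bases after the annotated start (RefSeq, GRCm38.p6), 5′ to 3′, with the bases after the start in capitals. The Lamb3 window lies at chr1:193301744-193302043 on the plus strand and the Itgb1 window at chr8:128685404-128685703 on the plus strand.
Lamb3: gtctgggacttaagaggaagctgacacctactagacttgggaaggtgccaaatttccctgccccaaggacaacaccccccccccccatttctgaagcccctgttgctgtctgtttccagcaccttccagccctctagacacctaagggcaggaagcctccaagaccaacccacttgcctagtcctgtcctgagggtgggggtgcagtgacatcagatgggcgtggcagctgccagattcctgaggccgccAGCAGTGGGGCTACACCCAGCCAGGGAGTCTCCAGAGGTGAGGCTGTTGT
Itgb1: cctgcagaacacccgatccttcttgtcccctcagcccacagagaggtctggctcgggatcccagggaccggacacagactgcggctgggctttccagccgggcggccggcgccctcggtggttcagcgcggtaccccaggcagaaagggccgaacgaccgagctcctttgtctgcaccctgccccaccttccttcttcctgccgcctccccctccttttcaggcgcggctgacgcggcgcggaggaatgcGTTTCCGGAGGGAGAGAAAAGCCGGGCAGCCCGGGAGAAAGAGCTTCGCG
The windows held 59.3% (Lamb3) and 67.3% (Itgb1) G and C, against 53.8% over all 32851 mouse windows of this kind. Of 5 motifs searched on both strands in the 8 windows found for 6 members, the letters of AP-1 (TGANTCA) were in 1 window of Itga3 and those of TEAD (GGAATG) in the Itgb1 window shown and in a second Lamb3 window that begins further downstream. In the Lamb3 window shown there was no match to any of the 5, and AP-1 and TEAD letters occur in 7.81% and 14.7% of all windows. The letters of HNF4 (CAAAGTCCA), CDX2 (TTTATG) and GRHL (AACCNGTT), which 0.475%, 11.9% and 2.09% of all windows hold, were in none of the 8.

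The laminin-332 chains were described first. Lamb3 had 23.8, 25.2 and 25.96 TPM in the ERBB3-dIE mice of litter A and 12.4, 11.2 and 19.3 TPM in those of litter B, against 54.7, 55.4, 40.9 and 68.1 TPM in the Erbb3-FF mice of litter A and 53.5 and 42.4 TPM in those of litter B. Every ERBB3-dIE library was below every Erbb3-FF library, and in ERBB3-dIE mice litter B was below litter A. The means were 19.7 ± 6.50 TPM in ERBB3-dIE and 52.5 ± 9.93 TPM in Erbb3-FF mice (SD, n = 6 each), so the ERBB3-dIE level was 37.5% of the other. The log2 difference was -1.36 with a standard error of 0.18 and a 95% interval of -1.75 to -0.97. It was -1.09 within litter A, with or without Erbb3-FF mouse 3, and -1.74 within litter B, and over both litters -1.38 without that mouse.

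Lama3 followed the same direction with the opposite order of litters. It had 6.07, 7.11 and 8.64 TPM in the ERBB3-dIE mice of litter A and 11.3, 21.2 and 11.05 TPM in those of litter B, against 24.0, 22.2, 13.4 and 24.4 TPM in the Erbb3-FF mice of litter A and 36.2 and 26.9 TPM in those of litter B. Within either litter the genotypes did not overlap, but over both litters ERBB3-dIE mouse 2, at 21.2 TPM, was above Erbb3-FF mouse 5, at 13.4 TPM. Means of 10.9 ± 5.47 TPM in ERBB3-dIE and 24.5 ± 7.35 TPM in Erbb3-FF mice (SD, n = 6 each) put the ERBB3-dIE level at 44.4% of the other. On the log2 scale this was -1.32, with a standard error of 0.20 and a 95% interval of -1.77 to -0.87, and -1.27 without Erbb3-FF mouse 3.

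The ratio of Lama3 to Lamb3 went with litter in each genotype. It was 0.255, 0.282 and 0.333 in the ERBB3-dIE mice of litter A and 0.906, 1.90 and 0.571 in those of litter B, against 0.440, 0.400, 0.328 and 0.358 in the Erbb3-FF mice of litter A and 0.676 and 0.635 in those of litter B. Litter B was above litter A without overlap in both genotypes, and the genotypes overlapped in each litter. Lama3 exceeded Lamb3 only in ERBB3-dIE mouse 2, and Lamb3 was the more abundant of both chains in the other 11 libraries.

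**Figure D1:**
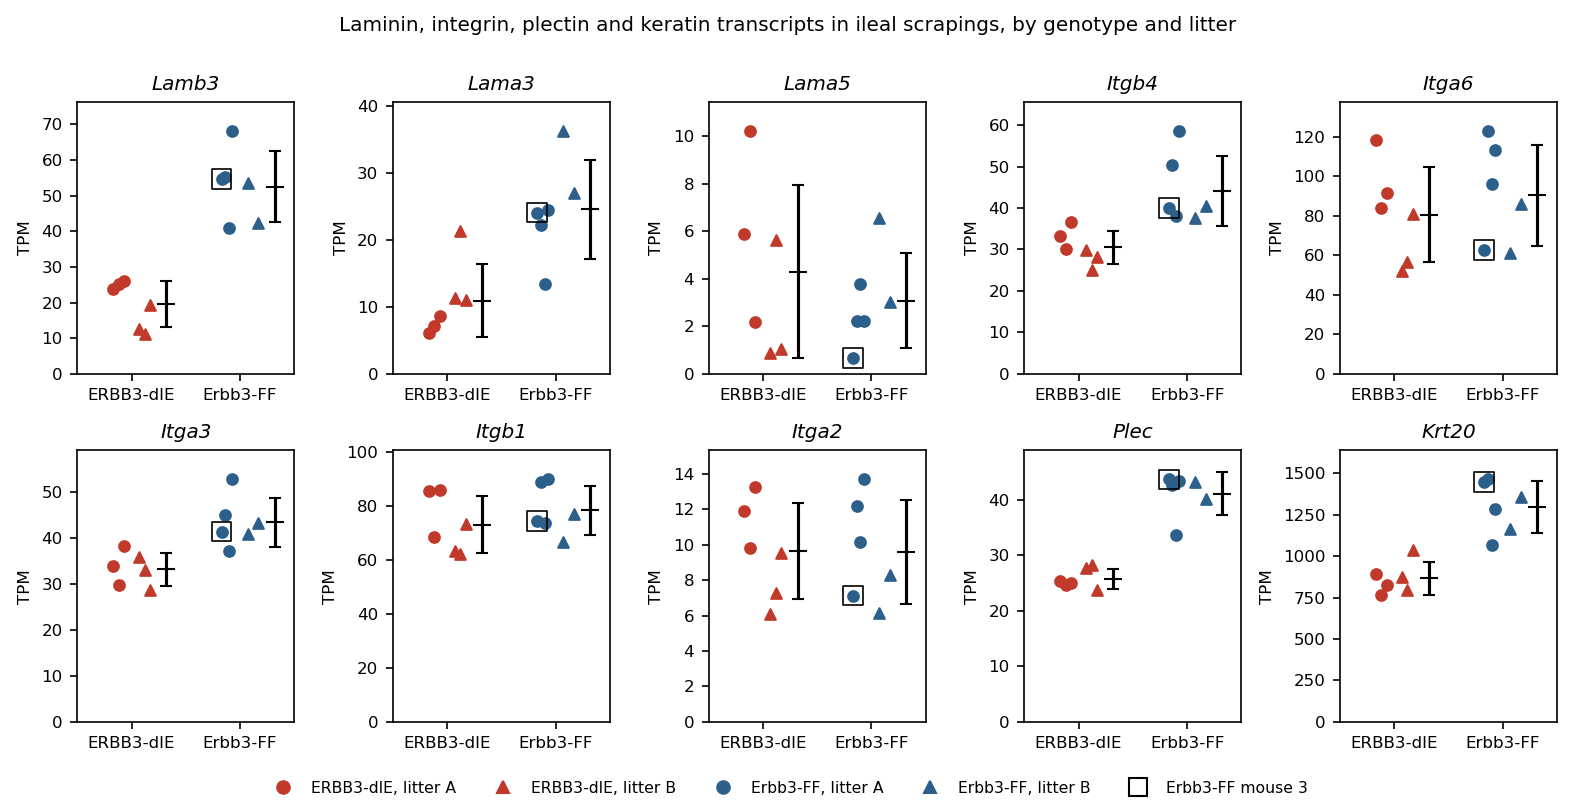
Level of 8 member genes and of the partners Plec and Krt20 in TPM (vertical axis, from 0) for each library, with ERBB3-dIE on the left and Erbb3-FF on the right of each panel. Circles are litter A, triangles litter B, the square marks Erbb3-FF mouse 3, and bars are the mean and SD of 6 libraries. Lamb3, Itgb4, Plec and Krt20 show no overlap between genotypes, while Itga6, Itgb1 and Itga2 lie in the same range in both.

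Lama5 is the alpha chain of laminin-511, the main laminin of the villus basement membrane, and is known to be made by epithelium and by the tissue beneath it. It had 5.87, 10.2 and 2.19 TPM in the ERBB3-dIE mice of litter A and 0.858, 5.62 and 1.03 TPM in those of litter B, against 0.651, 2.23, 3.80 and 2.21 TPM in the Erbb3-FF mice of litter A and 6.55 and 3.03 TPM in those of litter B. High and low libraries stood in both genotypes, and the lowest of all was Erbb3-FF mouse 3. The log2 difference of 0.26 had an interval of -1.02 to 1.54, was 1.21 within litter A (0.84 without Erbb3-FF mouse 3) and -1.10 within litter B, and was -0.02 without Erbb3-FF mouse 3. The mean log2(TPM + 0.5) of the stromal markers was highest in ERBB3-dIE mouse 5 (3.01), next in Erbb3-FF mouse 1 (2.59) and lowest in Erbb3-FF mouse 3 (0.34), which were also the highest, the second highest and the lowest library for Lama5, but ERBB3-dIE mouse 2 had 5.62 TPM of Lama5 with a stromal mean of 1.19 and ERBB3-dIE mouse 6 had 2.19 TPM with 2.27. The part of stromal RNA in these values was not tested. Its partner chains Lamb1 and Lamc1 had log2 differences of 0.35 (interval -0.55 to 1.25, adjusted p = 0.659) and -0.16 (interval -0.75 to 0.44, adjusted p = 0.778) by limma. In ERBB3-dIE mice of litter A Lamb1 was higher without overlap (1.09, or 0.69 without Erbb3-FF mouse 3). In those of litter B Lamb1 was lower without overlap (-0.70). It had 0.622 to 0.878 TPM in these 3 mice, against 0.922 and 2.53 TPM in 2 Erbb3-FF mice. Over both litters, leaving out 1 library gave 0.07 (without Erbb3-FF mouse 3) to 0.71 (without Erbb3-FF mouse 1).

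Itgb4 carries the long inner domain that binds plectin. It had 33.3, 30.2 and 36.6 TPM in the ERBB3-dIE mice of litter A and 29.8, 25.0 and 28.1 TPM in those of litter B, against 39.9, 50.3, 38.1 and 58.5 TPM in the Erbb3-FF mice of litter A and 37.5 and 40.6 TPM in those of litter B. All 6 ERBB3-dIE libraries were below all 6 Erbb3-FF libraries, but the gap between the nearest, ERBB3-dIE mouse 6 and Erbb3-FF mouse 1, was under 1 TPM. The means were 30.5 ± 4.04 TPM in ERBB3-dIE and 44.2 ± 8.43 TPM in Erbb3-FF mice (SD, n = 6 each), and the log2 difference was -0.48 with a standard error of 0.11 and an interval of -0.72 to -0.23. Within litters it was -0.46 in litter A (-0.53 without Erbb3-FF mouse 3) and -0.50 in litter B, and it was -0.51 without Erbb3-FF mouse 3.

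Itga6 is the only alpha chain known to pair with Itgb4. It had 118, 84.1 and 91.7 TPM in the ERBB3-dIE mice of litter A and 52.1, 56.7 and 80.7 TPM in those of litter B, against 62.6, 123, 96.1 and 113 TPM in the Erbb3-FF mice of litter A and 60.9 and 86.1 TPM in those of litter B. The genotypes overlapped, and the low libraries were 2 of each genotype: ERBB3-dIE mice 1 and 2 and Erbb3-FF mice 1 and 3. The log2 difference was -0.08 with an interval of -0.49 to 0.33, and -0.20 without Erbb3-FF mouse 3. That interval includes the difference of Itgb4, and the difference between these 2 genes was not tested. Transcripts of Itga6 exceeded those of Itgb4 in all 12 libraries, by a ratio of 1.75 to 3.55 with a median of 2.64 in ERBB3-dIE libraries and of 1.57 to 2.52 with a median of 2.03 in Erbb3-FF libraries. Itga6 also pairs with Itgb1, so its excess over Itgb4 is not a count of unpaired chains.

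Itga3 pairs with Itgb1 to make a laminin receptor outside the hemidesmosome. Its level was 33.9, 29.9 and 38.3 TPM in the ERBB3-dIE mice of litter A and 35.8, 33.2 and 28.7 TPM in those of litter B, against 41.4, 45.0, 37.2 and 52.8 TPM in the Erbb3-FF mice of litter A and 40.8 and 43.4 TPM in those of litter B. Litter B had no overlap between genotypes, and in litter A ERBB3-dIE mouse 6 was above Erbb3-FF mouse 5. The means were 33.3 ± 3.60 TPM in ERBB3-dIE and 43.4 ± 5.29 TPM in Erbb3-FF mice (SD, n = 6 each), with a log2 difference of -0.37, a standard error of 0.10 and an interval of -0.59 to -0.14. The value was -0.37 in each litter and -0.38 without Erbb3-FF mouse 3, which put litter A at -0.39.

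Its partner Itgb1, the beta chain shared by most matrix receptors, was nearly level. It had 85.5, 68.7 and 86.0 TPM in the ERBB3-dIE mice of litter A and 63.3, 62.4 and 73.2 TPM in those of litter B, against 74.5, 88.9, 73.7 and 89.9 TPM in the Erbb3-FF mice of litter A and 66.6 and 77.2 TPM in those of litter B. The log2 difference was -0.07 with an interval of -0.27 to 0.14, and -0.09 without Erbb3-FF mouse 3. The ratio of Itga3 to Itgb1 ran from 0.392 to 0.566 with a median of 0.440 in ERBB3-dIE libraries, and from 0.504 to 0.613 with a median of 0.559 in Erbb3-FF libraries.

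Itga2, the alpha chain of a collagen receptor that also pairs with Itgb1, had 11.9, 9.81 and 13.2 TPM in the ERBB3-dIE mice of litter A and 6.11, 7.29 and 9.52 TPM in those of litter B, against 7.13, 12.2, 10.2 and 13.7 TPM in the Erbb3-FF mice of litter A and 6.16 and 8.30 TPM in those of litter B. The genotypes overlapped fully, with means of 9.65 ± 2.69 TPM in ERBB3-dIE and 9.60 ± 2.94 TPM in Erbb3-FF mice (SD, n = 6 each) and a log2 difference of 0.11 with an interval of -0.26 to 0.48, which was 0.0074 without Erbb3-FF mouse 3. Col17a1, the collagen of the skin hemidesmosome, was listed at 0 in 9 of 12 libraries. It had 0.0197 TPM in ERBB3-dIE mouse 3, and 0.124 and 0.04997 TPM in Erbb3-FF mice 1 and 2, and it was too low to enter the fit.

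**Figure D2:**
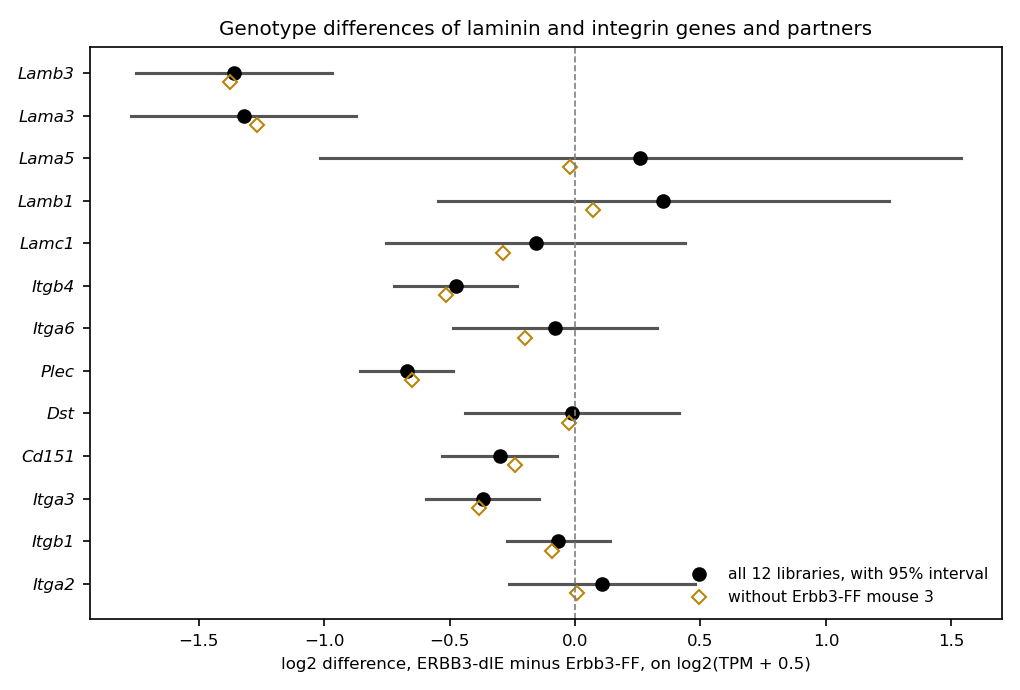
Genotype differences of 8 members and of partner genes as log2 differences on log2(TPM + 0.5), ERBB3-dIE minus Erbb3-FF (horizontal axis), 1 gene per line. Filled circles with lines are the fit over 12 libraries with its 95% interval, and open diamonds the fit without Erbb3-FF mouse 3. Lamb3 lies at -1.36, Lama3 at -1.32, Plec at -0.67 and Itgb4 at -0.48, whereas Itga6, Itgb1 and Itga2 have intervals that include 0.

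Of the 9 genes, 8 passed the filter on low values. In the fit over all genes 3 of them, Lama3, Lamb3 and Itgb4, were called lower in ERBB3-dIE mice at an adjusted p under 0.05 (Benjamini-Hochberg over all 12605 genes) and 0 were called higher. Over all tested genes 3.7% were called lower, 1.66% higher and 5.36% in either direction, and nothing is read from the members' count because the same contrast chose them. Those shares are 467 genes lower and 209 higher, and relative to the summed epithelial markers they became 149 lower and 588 higher, with the median of all genes moved by 0.16. Ranges that do not overlap, with ERBB3-dIE lower, were found for 2 members and for 1.43% of all tested genes, and with ERBB3-dIE higher for 0 members and 1.02% of genes. Without Erbb3-FF mouse 3 the same 3 members and 3.26% of genes were called lower. The median log2 difference of the 8 members was -0.22, beside 0.00 for all tested genes. Leaving out any 1 of 9 libraries ended the call of Itgb4, with log2 differences between -0.53 and -0.41 over all 12 such fits, and the call held without ERBB3-dIE mouse 1, Erbb3-FF mouse 3 or Erbb3-FF mouse 5. Leaving out Erbb3-FF mouse 5 added Itga3, at -0.41, to the genes called. In the authors' deposited table, the log2 fold changes were -1.47 for Lamb3, -1.20 for Lama3, -0.53 for Itgb4 and -0.37 for Itga3.

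Levels of the 9 genes spanned a wide range. In TPM over all 12 libraries Itga6 averaged 85.4 ± 24.3, Itgb1 75.8 ± 9.79, Itga3 38.4 ± 6.83, Itgb4 37.3 ± 9.52, Lamb3 36.1 ± 18.9, Lama3 17.7 ± 9.42, Itga2 9.62 ± 2.68 and Lama5 3.69 ± 2.87 (SD, n = 12). Neighbours at the top and in the middle of this order were not separated, since Itga6 exceeded Itgb1 in 8 libraries, Itga3 exceeded Itgb4 in 8 and Itgb4 exceeded Lamb3 in 6. Itgb1 was above Itga3 in all 12 libraries.

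Litter was the other labelled difference between the mice. As litter B minus litter A, Lama3 had a log2 difference of 0.76 (standard error 0.21), and 0.80 without Erbb3-FF mouse 3. Of the 8 members in the fit it was the only one with a positive litter difference, and the other 7 had negative ones. These were -0.52 for Lamb3, -0.56 for Itga2 and -0.53 for Itga6, and -0.53, -0.64 and -0.62 for the same genes without Erbb3-FF mouse 3. Col17a1, outside the fit, was above 0 only in 3 libraries of litter B. At an adjusted p under 0.05 the litter fit called 1 member, Lama3, and 8.55% of all genes, 7.16% as higher and 1.4% as lower in litter B. Without Erbb3-FF mouse 3 it called 3 members, Lama3, Itga2 and Itga6, and 24.3% of all genes, whereas leaving out any other library ended the call of Lama3 (0.60 to 0.87). Nothing is read from these counts because litter was part of the choice. Whether the genotype difference itself differed between litters was examined with an interaction term, which called 0 of the 12605 genes (limma; 1174 at an unadjusted p under 0.05). Among members the interaction, litter B minus litter A, was widest for Lama5, at -2.30 with an interval of -4.54 to -0.07, and was -0.64 for Lamb3 with an interval of -1.35 to 0.07. Without Erbb3-FF mouse 3 those values were -1.94 and -0.65, and 0.286% of all genes were called.

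**Figure D3:**
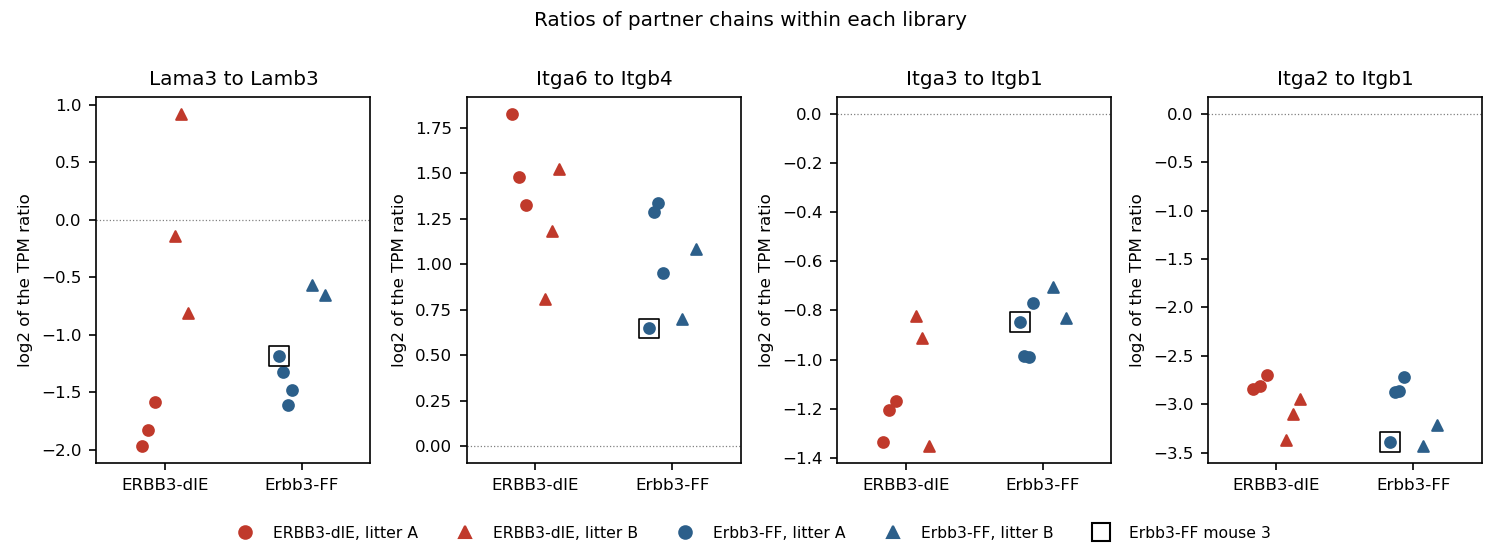
Ratio of the TPM of partner chains within each library, on a log2 scale (vertical axis), with ERBB3-dIE left and Erbb3-FF right. Circles are litter A, triangles litter B, the square marks Erbb3-FF mouse 3 and the dotted line marks equal TPM. Lama3 to Lamb3 is above the line only in ERBB3-dIE mouse 2 and separates the litters within each genotype, Itga6 to Itgb4 is above it in all 12 libraries, and the ratios to Itgb1 are below it.

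Partners that tie these receptors to the cell were examined in lists chosen by function. These lists, and the lists of cell type markers, were chosen with earlier results of these data known. Their calls are therefore given as a description and not as independent support for the members. Plec, the plectin that links Itgb4 to keratins, fell in ERBB3-dIE mice. It had 25.4, 24.6 and 24.9 TPM in the ERBB3-dIE mice of litter A and 27.7, 28.2 and 23.8 TPM in those of litter B, against 43.7, 42.6, 33.7 and 43.4 TPM in the Erbb3-FF mice of litter A and 43.2 and 40.2 TPM in those of litter B. No ERBB3-dIE library reached the lowest Erbb3-FF library, and the log2 difference was -0.67 with a standard error of 0.08 (limma, adjusted p = 0.00246, lower in 6 of 6 mice). Of the 10 genes of hemidesmosome and keratin anchors, all tested, 2 fell, Plec and Krt20, and 1 rose, Krt18, with a median log2 difference of -0.18. Krt20, a keratin of differentiated villus cells, averaged 866 ± 97.8 TPM in ERBB3-dIE and 1297 ± 157 TPM in Erbb3-FF mice (SD, n = 6 each), a log2 difference of -0.59 (limma, adjusted p = 0.0138). Krt18, a keratin of all simple epithelia, averaged 356 ± 30.1 TPM in ERBB3-dIE and 277 ± 28.9 TPM in Erbb3-FF mice (SD, n = 6 each), a log2 difference of 0.34 (limma, adjusted p = 0.0377), and of the 12 fits without 1 library, which gave 0.29 to 0.38, it was called only in those without ERBB3-dIE mouse 2 or Erbb3-FF mouse 3, 4 or 5. Dst, the plakin of the skin hemidesmosome, had a log2 difference of -0.01 (interval -0.44 to 0.42), and Cd151, a tetraspanin that binds laminin-binding integrins, had -0.30 (limma, adjusted p = 0.117).

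Around the receptors few other genes passed the test. Among 9 tested of 11 other epithelial integrins and laminin receptors, 1 fell: Itgb5, a beta chain of vitronectin receptors, at 24.3 ± 6.25 TPM in ERBB3-dIE and 38.3 ± 10.1 TPM in Erbb3-FF mice (SD, n = 6 each), a log2 difference of -0.72 (limma, adjusted p = 0.0230). That call was lost without ERBB3-dIE mouse 4 or 5 or Erbb3-FF mouse 1, 2 or 6, and the log2 difference over all such fits was -0.80 to -0.62. Of 11 tested of 19 basement membrane partners, which are other laminin chains, nidogens, type IV collagens and perlecan, 0 passed the test (6 with a positive and 5 with a negative difference), with a median log2 difference of 0.01. The one with the smallest p was Hspg2, perlecan, with a log2 difference of 0.78 (limma, adjusted p = 0.162). None of 19 tested of 21 integrin adaptors, of 9 tetraspanins, of 6 tested of 8 leukocyte integrins or of 2 tested of 6 stromal integrins passed it either in this fit, with median log2 differences of -0.12, 0.02, 0.06 and 0.40. The smallest p in each belonged to the adaptor Bcar1 (-0.39, adjusted p = 0.0783), to Tspan3 (-0.64, adjusted p = 0.0505), to Itgae of intraepithelial T cells (0.94, adjusted p = 0.0630) and to Itga5, the fibronectin receptor chain (0.63, adjusted p = 0.255), all by limma. In the authors' deposited table, Hspg2 (log2 fold change 0.80, adjusted p = 0.0444), Tspan3 (-0.51, adjusted p = 0.000143) and Itgae (1.121, adjusted p = 0.00224) did pass that threshold. Tspan3 was called without Erbb3-FF mouse 3 or mouse 5, with log2 differences of -0.71 to -0.51 over all such fits, and Itgae without ERBB3-dIE mouse 2, with 0.81 to 1.08. The mean of 5 T cell markers was between 3.75 and 5.42 in ERBB3-dIE libraries and between 3.02 and 4.07 in Erbb3-FF libraries, and 2 of the 5 rose (limma, adjusted p under 0.05), none at 0 in any library. Their part in the value of Itgae was not tested.

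Enzymes and ligands of the same matrix gave 1 call in each direction among 5 tested of 7. Bmp1, a protease that trims matrix proteins, averaged 3.24 ± 2.69 TPM in ERBB3-dIE and 10.8 ± 9.02 TPM in Erbb3-FF mice (SD, n = 6 each), a log2 difference of -1.69 (limma, adjusted p = 0.0499). In Erbb3-FF mice Bmp1 had 19.6 TPM in mouse 3 and 20.4 and 16.8 TPM in litter B. The other 3 Erbb3-FF mice of litter A had 1.98 to 2.96 TPM. ERBB3-dIE mice had 0.859 to 1.23 TPM in litter A and 3.10 to 6.59 TPM in litter B. Bmp1 was 1.89 higher in litter B on the log2 scale (limma, adjusted p = 0.0317), a wider difference than that of genotype. Mmp7, matrilysin of Paneth cells, averaged 154 ± 68.0 TPM in ERBB3-dIE and 76.8 ± 41.0 TPM in Erbb3-FF mice (SD, n = 6 each), a log2 difference of 1.21 (limma, adjusted p = 0.0496). Both calls stood at the threshold in this fit: that of Bmp1 held only without Erbb3-FF mouse 3 or 4 (-1.88 to -1.32 over the 12 fits) and that of Mmp7 only without Erbb3-FF mouse 3 or 5 (0.99 to 1.33). In the authors' deposited table the log2 fold changes were -1.54 for Bmp1 (adjusted p = 3.18e-09) and 1.102 for Mmp7 (adjusted p = 4.68e-05). Pmp22, a membrane protein named in the title of the series and known in Schwann cells to bind the integrin of Itga6 and Itgb4, had between 135 and 250 TPM in ERBB3-dIE libraries, against between 548 and 790 TPM in Erbb3-FF libraries, a log2 difference of -1.79 (limma, adjusted p = 0.000328).

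Cell content was followed with marker lists, because in a bulk scraping fewer cells of a type and less RNA per cell cannot be told apart. The mean log2(TPM + 0.5) of 9 epithelial markers ran between 9.14 and 9.54 in ERBB3-dIE libraries and between 9.25 and 9.52 in Erbb3-FF libraries. Relative to this mean in the same library, Lamb3 was lower in ERBB3-dIE by 1.38 on the log2 scale and Plec by 0.59. Both still had no overlap. Lama3 was lower by 1.13, Itgb4 by 0.45 and Itga3 by 0.31, with overlap. These are differences of plain group means, with no litter term. Without that term the log2 differences on the TPM scale were -1.45 for Lamb3, -1.19 for Lama3, -0.52 for Itgb4 and -0.38 for Itga3. Each library was also rescaled to the summed epithelial TPM and fitted with the litter term. Log2 differences were then -1.19 for Lamb3, -1.15 for Lama3, -0.30 for Itgb4 and -0.50 for Plec. Those of Itgb1 and Itga6 turned to 0.11 and 0.09, beside the median of 0.16 for all genes. Itgb5, at -0.55, was no longer called by limma on this scale, and Plec was called.

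The markers of villus tip enterocytes were lower in the genotype with the lower members. Their mean lay between 3.84 and 5.16 in ERBB3-dIE libraries and between 5.75 and 7.20 in Erbb3-FF libraries, with no overlap, and 5 of 7 fell (limma, adjusted p under 0.05), led by Nt5e, an ecto-enzyme, at -2.70, while none of the 7 was at 0 in any library. Summed, they had between 864 and 5859 TPM in ERBB3-dIE libraries, against between 3453 and 9995 TPM in Erbb3-FF libraries. Within ERBB3-dIE mice the mean of the list was 3.84 to 4.65 in litter A and 5.02 to 5.16 in litter B. Lama3 went the same way, at 6.07 to 8.64 TPM in litter A and 11.05 to 21.2 TPM in litter B. Lamb3 and Itgb4 went the other way, with litter B below litter A, and for Itga3 the litters overlapped. In Erbb3-FF mice Lama3 was again higher in litter B, but the litters overlapped for Lamb3, Itgb4 and Itga3. Lamb3 had 40.9 to 68.1 TPM in the Erbb3-FF mice of litter A and 42.4 and 53.5 TPM in those of litter B. The mean of the list in Erbb3-FF mice was 5.75 to 7.09 in litter A and 6.60 and 7.20 in litter B. The goblet list had a mean between 9.87 and 10.42 in ERBB3-dIE libraries and between 9.13 and 9.50 in Erbb3-FF libraries, with 3 of 5 genes higher and none at 0. Both lists were chosen with earlier results of these data known, so their calls and ranges are given as a description. The part of these cell types in the values of Lamb3, Lama3, Itgb4 and Itga3 was not tested.

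Crypt and cycling markers were also set beside the members. Their mean was lowest in the same 5 libraries in which Itga2 was lowest, namely ERBB3-dIE mice 1 and 2 and Erbb3-FF mice 1, 2 and 3, at 3.15 to 4.03, and lay between 4.66 and 5.01 in the other 7. Itga6 had its 4 lowest values within the same 5 libraries. The 6 crypt genes had 0 calls between genotypes by limma, and their part in the values of Itga2 and Itga6 was not tested. Smooth muscle markers were high in ERBB3-dIE mice 4 and 5, at 4.11 and 4.12, against at most 2.57 in the other 10 libraries, and without these 2 mice the log2 differences were -1.46 for Lamb3, -1.17 for Lama3 and -0.43 for Itgb4. B cell markers were high in Erbb3-FF mice 1, 2 and 3, at 5.17, 3.58 and 3.60, against at most 1.42 elsewhere. The glial markers summed to at most 1.04 TPM in any library.

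**Figure D4:**
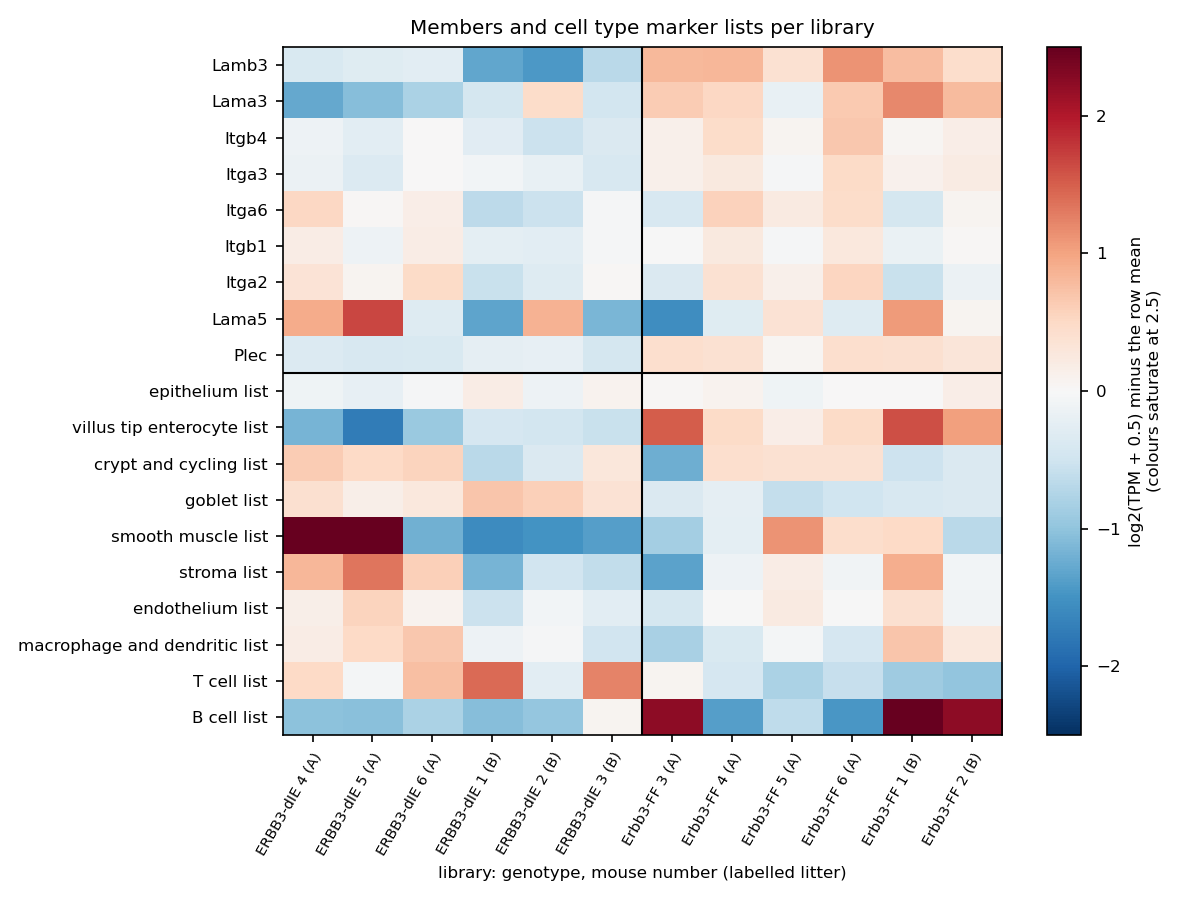
Level of 8 members and Plec (above the line) and of 10 cell type marker lists (below it) in each library, as log2(TPM + 0.5) minus the row's mean over 12 libraries, red for higher and blue for lower. Columns are ERBB3-dIE libraries on the left and Erbb3-FF libraries on the right, with mouse number and labelled litter. Lamb3 and Plec change colour at the genotype line as the villus tip list does, Lama3 does so in all but ERBB3-dIE mouse 2 and Erbb3-FF mouse 5, and Itga2 is blue in the 5 libraries with the lowest crypt list.

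Within genotype and litter the members formed no single pattern. Over 12 libraries, after subtracting the mean of each litter and genotype, Itga2 and Itga6 had a Pearson correlation of 0.90, Itga2 and Itgb1 of 0.85 and Itga3 and Itgb4 of 0.83, whereas Lama3 and Lamb3 had 0.16. Without Erbb3-FF mouse 3 these values were 0.81, 0.89, 0.84 and 0.16. These are descriptions over 12 libraries that share their epithelial content and scaling. Of 8636 genes with a mean of at least 5 TPM, the one nearest to the mean of the members was Dsp, desmoplakin of the desmosome, at 0.94. None of the 8 nearest genes stayed among the 8 nearest without Erbb3-FF mouse 3, so no gene is named further as following the group.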

How the data were processed

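RNA of ileal mucosal scrapings was sequenced in 12 mice, as single-end reads of 75 bases from a stranded mRNA kit, per the labels' protocols. CASAVA, Salmon 1.10.0, DESeq2 and the build GRCm39 are named in the submitters' processing notes, and the annotation release is not given in the sources used here. The authors deposited TPM per gene and library, each library summing to 1000000, so depth is unknown and no count model was fitted. The same table holds the authors' own comparison, per the file headers: a mean normalized signal (baseMean), the log2 fold change and its standard error, a Wald score, and raw and adjusted p-values, all deposited as the authors computed them.

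The 12605 genes that reached 1 TPM in 6 or more libraries were fitted as log2(TPM + 0.5) with limma 3.58.1 (R 4.3.3, lmFit and eBayes with a variance trend), litter and genotype as terms, over 12 libraries. A second model added their interaction. Adjusted p-values are Benjamini-Hochberg over all tested genes, and fold changes of low genes are understated on this scale. Nothing in the labels says more of the mice than litter and number, so p-values measure the spread between these mice. Erbb3 was tested by an exact permutation test. The member genes and the partner and marker lists were chosen with earlier results of these data known. Named are all members, of each list up to 4 called genes or else that with the smallest p, and a few fixed partners. The values of 1 gene are not reported here. Mouse numbers shared by the genotypes were not taken as pairs. Steps were tested on simulated data. Promoter windows come from RefSeq (GRCm38.p6), which is not the build of the table, and were found for 6 of 9 members. Alternatives covered pseudocount, filter, scaling, litter, block, libraries left out and the authors' test. The fit without Erbb3-FF mice 5 and 6, in which 2 genes of ribosomal sequence hold 10.2% and 10.8% of TPM against at most 1.62% elsewhere, was added after seeing the data.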

Additional observations from a re-analysis of the deposited data

Results flagged for a closer look

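Lama3 in ERBB3-dIE mouse 2 was the highest of the 6 ERBB3-dIE libraries, at 21.2 TPM, and stood apart from the others by 0.657 of the group's range, above the critical share of 0.625 for 6 libraries. The other 5 ERBB3-dIE libraries had between 6.07 and 11.3 TPM. In all, 16 groups were examined in this way, and chance gives such a gap in about 1 of 20 groups drawn from a single population. This group holds 3 mice of each litter, and Lama3 was 0.76 higher in litter B, the litter of mouse 2. That rate takes no account of litter. Without this library the Lama3 log2 difference was -1.44 (all fits without 1 library: -1.44 to -1.24).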

How the results depend on the processing

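Lamb3, Lama3, Itgb4, Itga3 and Plec kept their negative direction in all 28 alternatives, Lamb3 between -1.74 and -1.09 and Lama3 between -1.44 and -1.14. Members called lower (3) were 1 with no litter term, 0 in litter A alone, 0 in litter B alone, 1 without ERBB3-dIE mice 4 and 5, 2 with no filter or relative to epithelium (Itgb4 lost), 4 scaled without ribosomal and mitochondrial genes or in the authors' deposited table (Itga3 added), and 2 to 4 without 1 library. Genes called higher (209) were 105 with no filter, 87 with no litter term, 4 in litter A, 6 in litter B, 588 relative to epithelium, 43 without ERBB3-dIE mice 4 and 5, 83 without Erbb3-FF mice 5 and 6, 786 in the authors' deposited table, and 95 to 213 without 1 library. Genes called lower (467) were 245, 156, 2, 9, 149, 65, 368 and 1164 in the same order, 825 scaled without ribosomal and mitochondrial genes, and 190 to 621 without 1 library. For litter, genes higher (902) and lower (176) were 219 and 26 with no filter, 421 and 287 scaled without ribosomal and mitochondrial genes, 157 and 96 relative to epithelium, 0 and 0 without ERBB3-dIE mice 4 and 5 or with a smooth muscle covariate, 4 and 3 without Erbb3-FF mice 5 and 6, 97 to 1982 and 4 to 1077 without 1 library, and 387 higher with TMM scaling. The interaction called 3 higher and 50 lower with no filter, and 0 to 3 and 0 to 33 without 1 library. The Erbb3 difference was 0.42 relative to epithelium and 0.46 without ERBB3-dIE mice 4 and 5, both with an exact p under 0.05. That permutation test has no litter term, both of these mice are of litter A, and Erbb3 was higher in litter B. Over all libraries the genotypes are also unequal in litter, so genotype and litter are mixed in both values. Itga5 turned to -0.19 in litter B alone. The causes were not tested. With mouse number as a replicate block, 217 genes were higher, 538 lower and 4 members lower, with Itga3 added. Same-numbered libraries correlated between 0.07 and 0.36 in their deviations from genotype means, 1 pair under 0.1, but these deviations also carry litter. In deviations from the means of each litter and genotype they correlated between -0.25 and 0.15. Mouse 3 is of litter B in ERBB3-dIE and of litter A in Erbb3-FF, and the numbers were not taken as pairs. The depth of each library is unknown, so no counting error can be given for low genes such as Lama5 and Col17a1.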
